A study of Mus musculus with 12 samples.

Results

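Genes of the Ly6 family were followed in wild type C57BL/6 mouse prostate organoids grown from basal cells. The 8 genes were chosen by symbol: Ly6g6c, Ly6d, Lypd3, Ly6c1, Ly6e, Ly6k, Slurp1 and Lypd2. All 8 were among the 24674 genes of the deposited table of TPM, transcripts per 1000000. The organoids were treated with vehicle, with UK5099, with butyrate, or with UK5099 and butyrate together (called the combination here), and each of the 4 groups had 3 RNA samples. UK5099 blocks the mitochondrial pyruvate carrier, and butyrate is a short-chain fatty acid that inhibits histone deacetylases. All groups share the genotype, the strain and the basal origin. The labels give no dose or time, and nothing says that the 3 samples of a group were separate cultures, so that any p-value measures only the spread between these samples, which may be technical. The choice of these genes was made with their values in these same groups known, so that their differences between groups are given as a description, with no test.

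Ly6 proteins are small proteins built around the LU domain, a compact fold of finger-like loops held by disulphide bonds. Most are tied to the outer face of the cell membrane by a glycosylphosphatidylinositol (GPI) anchor, while a few, such as Slurp1, are secreted. The family includes surface markers of blood cells, proteins that tune nicotinic acetylcholine receptors, and the urokinase receptor Plaur, and several members mark layers of stratified epithelium. In the mouse many of the genes lie side by side on chromosome 15, with smaller groups in the major histocompatibility complex on chromosome 17 and near Plaur on chromosome 7.

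The 6 members Slurp1, Lypd2, Ly6d, Ly6k, Ly6e and Ly6c1 lie on chromosome 15, in the same cluster as 11 other listed family genes, which spans 852.4 kb from Psca to Ly6h. Positions are those of the deposited table, whose build the submitters' processing notes give as GRCm39. Ly6g6c lies at chr17:35284364-35289026 and Lypd3 at chr7:24335975-24340543. The coding sequence of Ly6c1, of 396 bases in the principal GENCODE transcript, was 97.7% identical to that of Ly6c2, and 82% identical to that of Ly6a. No other member reached such identity to any of the 43 family coding sequences compared with it: the closest was 53.4%, between Lypd2 and Lynx1. Fragments from Ly6c1 could therefore be divided with Ly6c2 during counting, and both values carry that uncertainty.

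The promoters of Ly6g6c, Lypd3 and Ly6c1 are shown because these members stood higher in treated samples and had an entry in the RefSeq table used here, which matched 3 of the 8 members. Each line gives the 250 bases before the RefSeq start site, in build GRCm38.p6, read 5′ to 3′ on the strand of the gene, with matches to the searched motifs in capitals. The windows are chr17:35067075-35067324 on the plus strand, chr7:24636320-24636569 on the plus strand and chr15:75048838-75049087 on the minus strand.
Ly6g6c promoter: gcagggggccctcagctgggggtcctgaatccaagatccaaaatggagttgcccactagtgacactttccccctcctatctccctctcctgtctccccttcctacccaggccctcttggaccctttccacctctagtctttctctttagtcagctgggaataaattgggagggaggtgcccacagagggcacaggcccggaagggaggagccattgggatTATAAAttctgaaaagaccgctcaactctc
Lypd3 promoter: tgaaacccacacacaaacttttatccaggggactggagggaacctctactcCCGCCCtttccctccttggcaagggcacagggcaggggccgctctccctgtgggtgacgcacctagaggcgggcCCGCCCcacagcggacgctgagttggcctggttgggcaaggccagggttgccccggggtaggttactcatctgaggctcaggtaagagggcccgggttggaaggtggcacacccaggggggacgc
Ly6c1 promoter, upstream start: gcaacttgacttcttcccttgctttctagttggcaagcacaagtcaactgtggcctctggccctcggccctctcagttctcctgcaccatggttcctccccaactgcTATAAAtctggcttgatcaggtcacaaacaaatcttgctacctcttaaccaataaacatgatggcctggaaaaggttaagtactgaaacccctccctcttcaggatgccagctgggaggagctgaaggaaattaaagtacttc

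The Ly6g6c window held the letters TATAAA once, at bases -30 to -25 from the start. The upstream Ly6c1 window held the same letters at -143 to -138, and 12.4% of all 32851 promoter windows of this length hold them on either strand. The Lypd3 window held GGGCGG at -199 to -194 and at -125 to -120, both on the opposite strand. Of all windows, 32.7% hold these letters at least once on either strand. The GC content of the Lypd3 window was 65.2% against a median of 52.4%. Windows of Ly6g6c and Lypd3 held no CCACCC (28.1% of all windows), while the window of a second, downstream Ly6c1 start held it at -24 to -19 and, overlapping that, at -20 to -15, on the opposite strand. No match to TGANTCA (6.75% of windows) or the p53 family half-site (7.13%) was found in these windows, which says only that these letters are not there.

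Depth was 33252043 to 43498953 fragments per sample, recovered from the steps of the TPM values. The basal keratins were high in every group, with Krt5 at 1848 ± 8.64 TPM in vehicle and 4930 ± 58.7 with UK5099 (SD, n = 3), as fits the basal label. Krt14 had 1676, 5047, 1391 and 3641 TPM in vehicle, UK5099, butyrate and the combination, and Krt15 had 3029, 3597, 2426 and 1932. Krt14 was thus below vehicle with butyrate, and Krt15 was below vehicle with butyrate and in the combination. The summed TPM of 4 basal markers was 6494 to 6620 in vehicle, 13438 to 13814 with UK5099, 6887 to 7124 with butyrate and 9936 to 10347 in the combination. That of 4 luminal markers was 4609 to 4794, 2735 to 2887, 2689 to 2723 and 1693 to 1913 in the same order. The immune genes Ptprc, Csf1r and Itgam had group means of at most 0.0161 TPM, and the endothelial genes Pecam1, Cdh5, Kdr and Tek at most 0.0277 TPM. The 5 immune markers in the table, of 8 listed, summed to 3.52 to 3.86 TPM in vehicle, 62.7 to 68.9 with UK5099, 27.2 to 29.6 with butyrate and 306.0 to 336.7 in the combination, nearly all from S100a8 and S100a9, which stratified epithelium also makes. The 5 endothelial markers summed to 0.691 to 0.828 TPM in vehicle and at most 1.96 elsewhere. Most of that came from Esam, at 0.746 ± 0.0855, 1.15 ± 0.033, 1.52 ± 0.11 and 1.76 ± 0.17 TPM in vehicle, UK5099, butyrate and the combination. The 6 stromal markers summed to 2.11 to 2.73 TPM outside the butyrate group and 10.3 to 10.7 within it, where Dcn had 9.51 ± 0.129 TPM. No marker of the lists in the table was at 0 in a whole group. The part of these shifts in the results that follow was not tested, and in bulk RNA fewer cells of a type and less RNA per cell cannot be told apart. UK5099 replicate 1 and combination replicate 1 stood apart from the other 2 samples of their groups, with a chi-square per degree of freedom over genes of 6.29 to 6.64 against 1.93 to 2.65 in all other pairs of a group, and leaving out either kept 3, 4 and 4 members past the limits given next.

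In the fit, each coefficient is a difference on the log2(TPM + 1) scale, which understates the change of low genes. A gene passed both limits where its adjusted p was under 0.01 and its coefficient over 1 in size, in limma with Benjamini-Hochberg adjustment over all genes. With UK5099, 3 of the 8 members (Ly6g6c, Ly6d and Lypd3) passed both limits as higher and 0 as lower, beside 0.928% and 0.912% of all genes. With butyrate 4 were higher (the same 3 and Ly6c1) and 0 lower, beside 1.13% and 2.42% of all genes, and with the combination the same 4 were higher and 0 lower, beside 1.79% and 4.63%. These contrasts share the vehicle samples and chose the members, and nothing is read from the shares. The median coefficient of the 8 was 0.82, 0.97 and 1.67, against -0.03, -0.07 and -0.11 for all genes tested.

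The typical gene itself moved on this scale: the median coefficient of 13345 genes averaging 1 TPM or more was -0.12, -0.30 and -0.41 for UK5099, butyrate and the combination. After median of ratios scaling it was 0.00, -0.03 and -0.03. Members that stood higher therefore stood further above the typical gene than their coefficients, and the lower values of Ly6e lie partly within that shift.

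**Figure D1:**
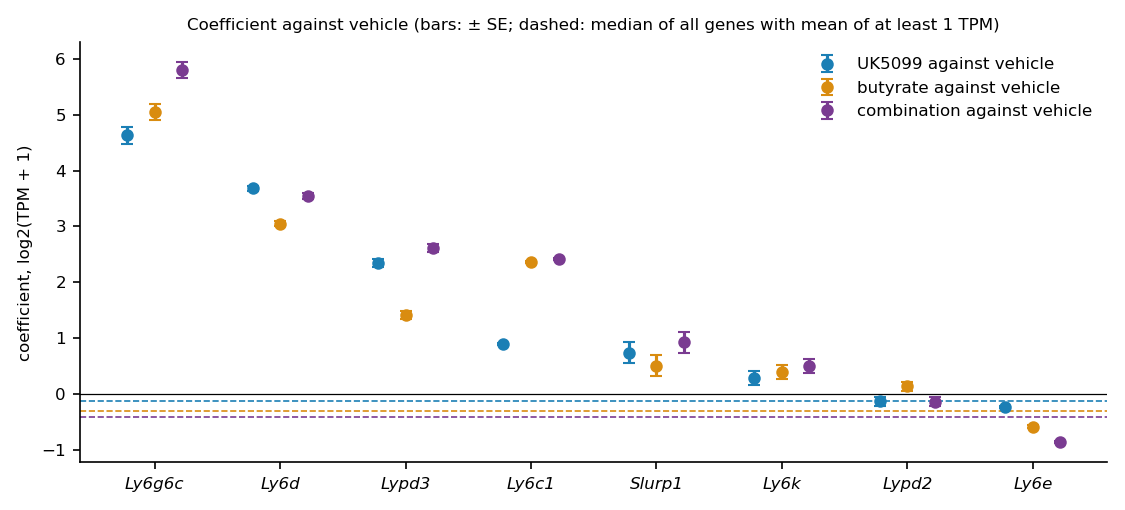
Coefficient of each member against vehicle on the log2(TPM + 1) scale, in circles with bars of 1 SE, for UK5099 (blue), butyrate (orange) and the combination (purple), each from 3 samples a group. Dashed lines mark the median of genes averaging 1 TPM or more; Ly6g6c reached 5.80, and Ly6e alone was below 0 in all 3.

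Ly6g6c, a surface protein gene of the histocompatibility complex, had the largest coefficients of the 8. It measured 2.17, 1.67 and 1.88 TPM in the vehicle samples, 69.3, 58.3 and 87.5 with UK5099, 93.2, 93.7 and 99.1 with butyrate, and 194.3, 142.8 and 147.9 in the combination. The 4 groups did not overlap, and vehicle lay far below the rest. Group means were 1.91 ± 0.25, 71.7 ± 14.7, 95.3 ± 3.28 and 161.7 ± 28.4 TPM (SD, n = 3), which is 37.6-fold, 50-fold and 84.8-fold over vehicle. The coefficients were 4.63, 5.05 and 5.80 (SE 0.15 each). The vehicle level rested on 67, 50 and 73 fragments and the UK5099 level on 2395, 2084 and 3375, and every vehicle count came out whole. Its span shares 797 bases with Mpig6b on the opposite strand, which had 0.924 ± 0.182 TPM in vehicle and 2.02 ± 0.33 with butyrate.

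Ly6d marks squamous and transitional epithelia as well as early B-lineage cells. It stood at 89.1, 95.6 and 93.8 TPM in vehicle, 1221, 1151 and 1246 under UK5099, 798.7, 760.3 and 766.8 under butyrate, and 1194, 1039 and 1062 in the combination. Every treated sample was above every vehicle sample, butyrate was the lowest of the treated groups, and UK5099 and the combination overlapped. The means of 92.9 ± 3.34, 1206 ± 49.2, 775.3 ± 20.6 and 1098 ± 83.6 TPM gave 13-fold, 8.35-fold and 11.8-fold over vehicle, with coefficients of 3.68, 3.05 and 3.55 (SE 0.05). The order of UK5099 and the combination turned with the scale: per 1000000 fragments and exonic kilobase the combination was higher, at 585.3 ± 44.5 against 520.2 ± 18.5, and the coefficient of butyrate added to UK5099 was -0.14 as deposited and 0.18 after median of ratios scaling.

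Lypd3, also called C4.4A, is a relative of the urokinase receptor found in the suprabasal layers of stratified epithelium. Its TPM was 75.6, 77.5 and 77.1 in vehicle, 396.6, 369.2 and 417.6 with UK5099, 213.1, 201.4 and 208.5 with butyrate, and 530.6, 444.2 and 447.9 in the combination. No 2 groups overlapped, with UK5099 above butyrate and the combination above both. Its span shares 1367 bases with the long noncoding gene Gm26550 on the opposite strand. The recovered vehicle values of 2288.5, 2273.0 and 2938.6 fragments were not all whole, so some may be divided. Means of Lypd3 were 76.8 ± 1.01, 394.5 ± 24.3, 207.7 ± 5.88 and 474.3 ± 48.8 TPM, which is 5.14-fold, 2.71-fold and 6.18-fold over vehicle, with coefficients of 2.34, 1.42 and 2.61 (SE 0.07).

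Ly6c1 encodes a surface antigen best known from monocytes and endothelium. It measured 42, 42 and 39.3 TPM in vehicle, 77.1, 79 and 77.2 under UK5099, 213.8, 215.7 and 219.3 under butyrate, and 223.6, 223.7 and 224.6 in the combination. The order differed from that of Lypd3, since butyrate lay far above UK5099 and the combination only just above butyrate, with no overlap. Means of 41.1 ± 1.52, 77.8 ± 1.08, 216.3 ± 2.79 and 224.0 ± 0.544 TPM gave 1.89-fold, 5.26-fold and 5.45-fold, with coefficients of 0.90, 2.37 and 2.42 (SE 0.02). The UK5099 coefficient was 1.05 after median of ratios scaling, past the limit of 1. Of the listed monocyte and endothelial markers, Csf1r, Itgam, Pecam1, Cdh5, Kdr and Tek were near 0 in all groups, as given above. Esam, at 0.746, 1.15, 1.52 and 1.76 TPM, had the same order of group means as Ly6c1. Whether other cells contributed to the Ly6c1 level was not tested.

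Ly6e, an interferon-inducible surface protein that serves in the mouse placenta as a receptor for the fusion protein syncytin-A, was the most abundant of the 8 in vehicle per exonic length, at 461.7 fragments per 1000000 fragments and kilobase against 41.2 for Lypd3, 37.9 for Ly6d, 22.9 for Ly6c1 and 1.26 for Ly6g6c. With UK5099 and in the combination Ly6d stood above it on that scale, at 520.2 against 415.5 and at 585.3 against 332.7, while with butyrate the levels were 393.6 for Ly6d and 384.9 for Ly6e. Ly6e measured 1860, 1900.5 and 1810 TPM in vehicle, 1569, 1574 and 1597 under UK5099, 1233, 1228 and 1269 under butyrate, and 1038, 1024 and 1009.8 in the combination. The groups did not overlap and stepped down in that order. The coefficients were -0.23, -0.58 and -0.86 (SE 0.02), and -0.08, -0.26 and -0.39 after median of ratios scaling, so that direction held while size depended on the scaling. Ly6e gave 89.5% to 89.8% of the summed TPM of the 8 members in vehicle, 46.6% to 48.7% with UK5099, 48.3% to 49.5% with butyrate and 32.6% to 35.6% in the combination. These shares depend on the division by genomic span in the deposited TPM: per exonic kilobase they were 81.3% to 81.8%, 32.2% to 34.2%, 33% to 34% and 20.1% to 22.4% in the same order. The other 7 summed to 213.8 ± 4.09 TPM in vehicle, 1752 ± 86.3 under UK5099, 1297 ± 23.4 under butyrate and 1961 ± 161.0 in the combination.

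Slurp1, the secreted ligand of nicotinic receptors whose loss causes a palmoplantar keratoderma in humans, was rare. It was counted at 0, 2 and 2 fragments in the vehicle samples, 30.1, 15 and 21 with UK5099, 6, 25 and 19 with butyrate, and 63, 29 and 29 in the combination. All treated samples were above all vehicle samples, and the treated groups overlapped. Mean TPM was 0.0495 ± 0.0439 in vehicle and 0.767 ± 0.291, 0.513 ± 0.311 and 1.02 ± 0.446 in the treated groups, with coefficients of 0.74, 0.51 and 0.93 (SE 0.19). With voom on fragments they were 3.88, 3.28 and 4.60, and with so few fragments in vehicle the size depends on the pseudocount or prior count. Its values were not all whole fragments, with 7 of 11 whole, and it shares 322 bases with Them6 on the opposite strand.

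Ly6k, known from germ cells and needed for sperm function, ranged from 0.585 to 1.3 TPM in vehicle, 1.31 to 1.62 with UK5099, 1.53 to 1.69 with butyrate and 1.5 to 2.07 in the combination. The treated groups overlapped and each lay above vehicle. Coefficients were 0.29, 0.40 and 0.50 (SE 0.13). Only 1 of its 12 values was a whole number of fragments, and a long noncoding gene on the opposite strand, Gm17189, covers all 3113 bases of its span, so its level is uncertain.

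Lypd2 was close to undetected, at 0 to 0.335 TPM in any sample. Its group means were 0.143 ± 0.135, 0.0418 ± 0.0724, 0.253 ± 0.0707 and 0.0306 ± 0.0266 TPM, all neighbouring groups overlapped, and no fold is given.

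**Figure D2:**
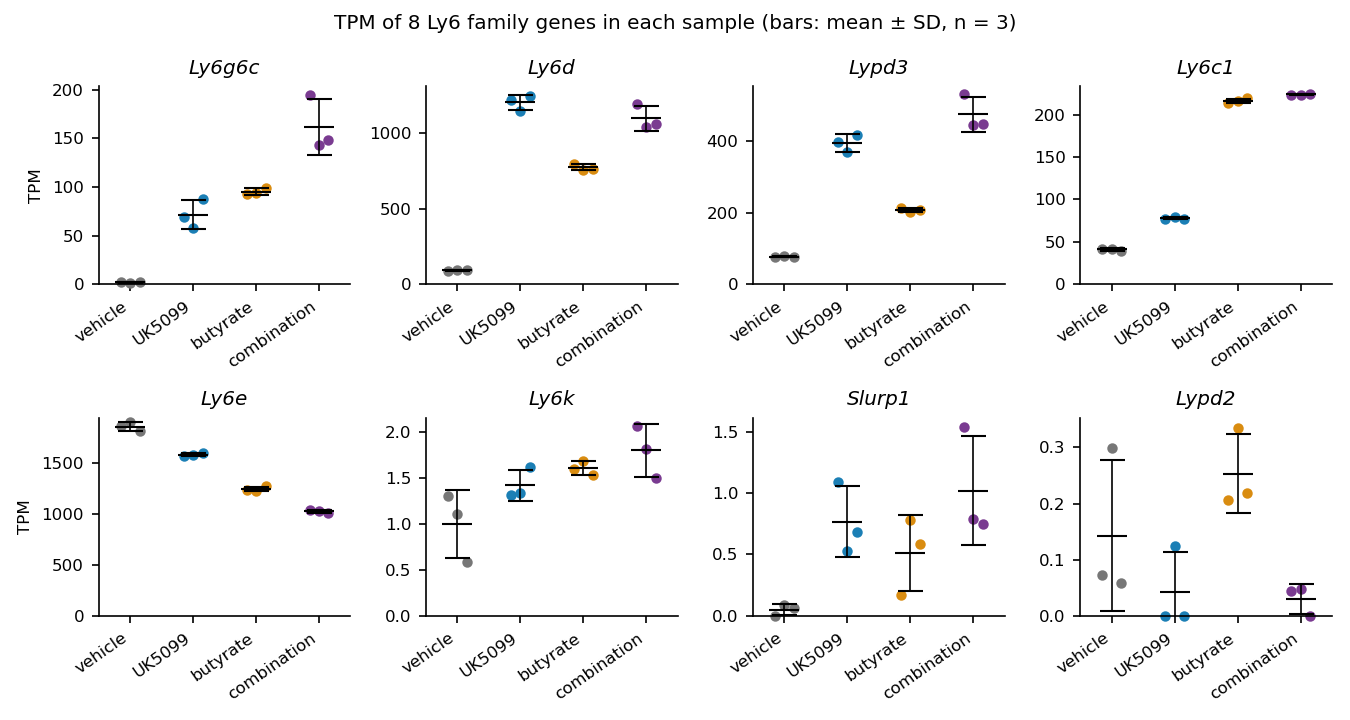
TPM (linear axes from 0, a scale for each panel) of the 8 members in each of the 12 samples, as points, with mean and SD bars for vehicle, UK5099, butyrate and the combination. Vehicle lies below every treated sample for Ly6g6c, Ly6d, Lypd3, Ly6c1, Ly6k and Slurp1, above them for Ly6e, and within their range for Lypd2.

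The combination was next set against the sum of the single treatments. An interaction coefficient of 0 means that the combination equals the sum of both single coefficients on the log2 scale. It was -3.89 ± 0.22 for Ly6g6c, -3.19 ± 0.08 for Ly6d and -1.16 ± 0.10 for Lypd3 (SE), and these 3 of 8 members passed both limits as negative and 0 as positive, beside 0.499% and 0.515% of all genes. It was -0.85 ± 0.03 for Ly6c1, -0.05 ± 0.03 for Ly6e, -0.32 ± 0.27 for Slurp1, -0.20 ± 0.18 for Ly6k and -0.15 ± 0.12 for Lypd2. For Ly6d the single coefficients summed to 6.73, while the combination reached 3.55, below the 3.68 of UK5099 alone. After median of ratios scaling the Ly6d combination coefficient of 4.01 lay above the 3.83 of UK5099 alone. For Ly6e the sum of -0.81 and the combination of -0.86 lay close together.

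**Figure D3:**
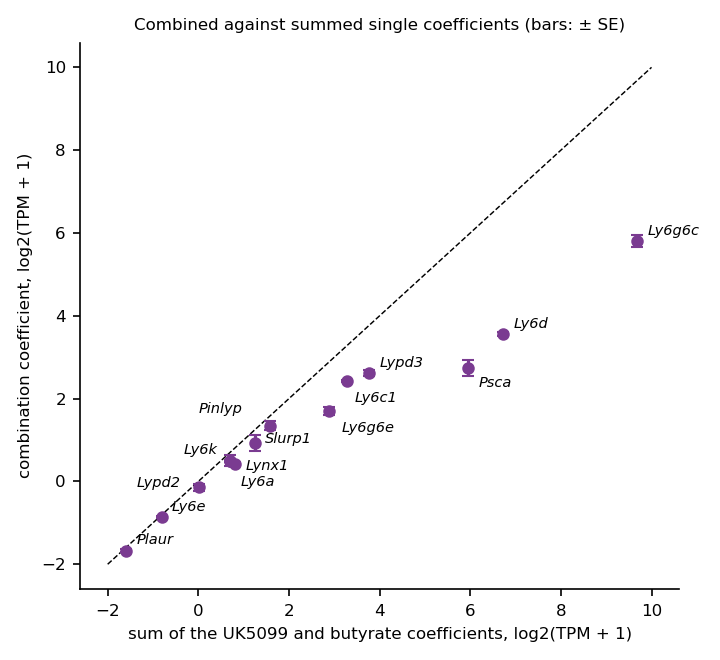
Combination coefficient (vertical axis, bars of 1 SE) against the sum of the UK5099 and butyrate coefficients (horizontal axis), both on the log2(TPM + 1) scale and both from the same vehicle samples, for the 8 members and 6 other family genes. The dashed line marks equality; Ly6g6c, Ly6d and Psca lie furthest below it, and Ly6e and Plaur lie on or beside it.

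The contrasts between treated groups separated the members. When UK5099 was added to butyrate, Lypd3 passed both limits (1.18 ± 0.07), as 1 member higher and 0 lower beside 0.551% and 0.357% of all genes. When butyrate was added to UK5099, Ly6g6c (1.17 ± 0.15) and Ly6c1 (1.51 ± 0.02) did, as 2 higher and 0 lower beside 0.823% and 1.15%. Butyrate against UK5099 gave Ly6c1 (1.46 ± 0.02), as 1 higher and 0 lower beside 0.681% and 1.18%, while Lypd3 (-0.92 ± 0.07) and Ly6d (-0.64 ± 0.05) were lower with butyrate and short of the limit of 1.

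The genes whose pattern was most like each member were sought among 10615 protein-coding genes outside the family, by Pearson r of log2(TPM + 1) over the 12 samples. The samples form 4 treatment groups, so that any gene with the same group means scores high, and the r values are a description. Nccrp1 (r = 0.999), Klf4 and Clca2 (0.995 each) were closest to Ly6g6c. Nccrp1 had 2.83 TPM in vehicle and 199.4, 227.7 and 525.1 in the treated groups. Cldn1 (0.995), Zfp750 and Gna15 (0.994 each) were closest to Ly6d, Zfp750 being a regulator of epidermal differentiation. Crabp2 and Krt13 (0.998 each) and Ovol1 (0.997) were closest to Lypd3, with the suprabasal keratin Krt13 at 11.6, 263.9, 97.3 and 416.1 TPM in vehicle, UK5099, butyrate and the combination. Ly6c1 was closest to Gas6, Igfbp4 (0.997 each) and Bmp3 (0.996), and Ly6e to Stra6, 2610507B11Rik and Ddi2 (0.998 each). The likeness was looser for Slurp1 (Ybx3 0.942, Pim3 0.931, Slc16a11 0.914) and Ly6k (Echdc1 0.907, Dguok 0.893, Nat9 0.871).

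Of 51 other family symbols, listed with earlier results of these data known, 28 were in the table and 10 reached a mean of 1 TPM in a group. With UK5099 3 rose (Psca, Ly6g6e and Pinlyp) and 0 fell in limma, beside 0.928% and 0.912% of all genes. In limma 6 fell at an unadjusted p under 0.05, and voom on fragments called 3 lower. Shares of all genes for these last counts were not taken, and nothing is read from them. With butyrate 2 rose (Psca and Ly6g6e) and Plaur fell, beside 1.13% and 2.42%. With the combination 3 rose (Psca, Ly6g6e and Pinlyp) and Plaur fell, beside 1.79% and 4.63%. The other 25, 25 and 24 did not pass, and the median coefficient of the 28 was 0.02, 0.02 and 0.01.

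Psca, prostate stem cell antigen, lies at the edge of the chromosome 15 cluster. It measured 116.9, 120.6 and 94.1 TPM in vehicle, 834.7, 634.5 and 928.0 under UK5099, 1007, 938.0 and 952.4 under butyrate, and 965.9, 614.9 and 684.3 in the combination. All treated samples were far above vehicle, and the combination overlapped with UK5099 and with butyrate. It rose 7.23-fold, 8.74-fold and 6.83-fold, with coefficients of 2.83, 3.12 and 2.74 (SE 0.19) and limma adjusted p of 2.00e-06, 3.75e-07 and 6.55e-07. Its interaction was -3.21 ± 0.27 (limma adjusted p = 3.44e-05), and no difference between the combination and either single treatment passed (UK5099 added to butyrate -0.38 ± 0.19, adjusted p = 0.159, butyrate added to UK5099 -0.09 ± 0.19, adjusted p = 0.751, in limma).

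Within groups, the levels of Ly6g6c, Ly6d and Lypd3 were also set beside each other and beside Psca from sample to sample, 4 genes picked after their values were seen. Of the UK5099 samples, replicate 3 was the highest and replicate 2 the lowest for Ly6g6c, Ly6d, Lypd3 and Psca, and of the combination samples replicate 1 was the highest and replicate 2 the lowest for the same 4 genes. Over the 12 deviations from group means, Pearson r was 0.94 for Ly6d with Lypd3, 0.87 for Lypd3 with Psca and 0.83 for Ly6g6c with Lypd3. It was 0.81 for Ly6g6c with Psca and 0.80 for Ly6d with Psca. It was lower for Ly6g6c with Ly6d, at 0.63, and Ly6c1, which also stood higher after treatment, had -0.22 with Lypd3 and -0.15 with Ly6g6c. The deviations share their libraries and depth. Combination replicate 1, with deviations of 0.28 for Ly6g6c, 0.12 for Ly6d, 0.17 for Lypd3 and 0.38 for Psca on the log2(TPM + 1) scale, is a library that stood apart in its group. Without it, an alternative chosen after seeing the data, these values of r were 0.86, 0.75, 0.73, 0.68 and 0.59 over 11 samples, in the order given. For Ly6g6c with Ly6d r went from 0.63 to 0.33.

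**Figure D4:**
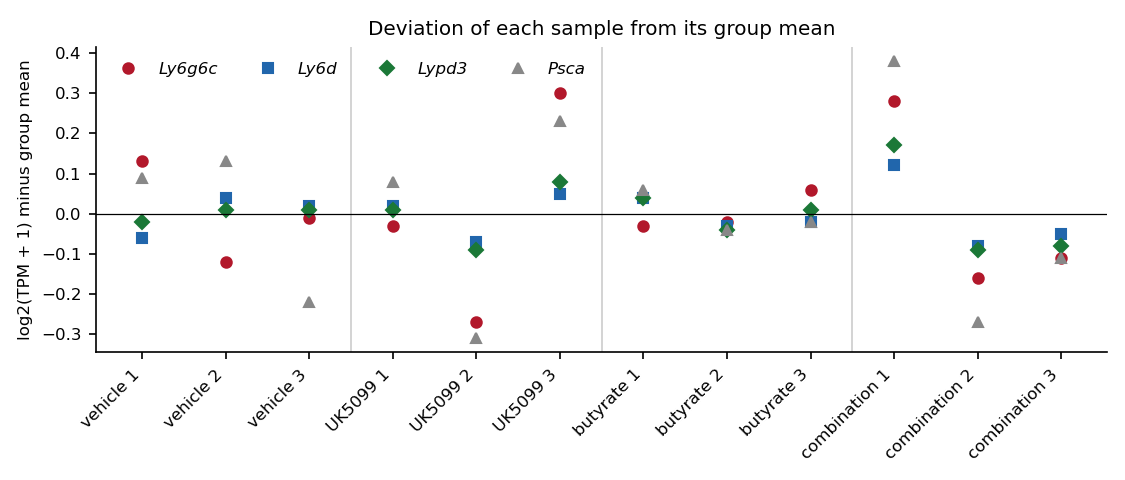
Deviation of log2(TPM + 1) from the group mean (vertical axis, log2 units) in each of the 12 samples for Ly6g6c, Ly6d, Lypd3 and Psca, with thin lines between groups. UK5099 replicate 2 and combination replicates 2 and 3 lie below 0 and UK5099 replicate 3 and combination replicate 1 above it for all 4 genes.

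Ly6g6e, beside Ly6g6c on chromosome 17, rose from 5.71 ± 0.413 TPM to 18.5 ± 1.19, 16.1 ± 0.648 and 21 ± 3.31, with coefficients of 1.54, 1.35 and 1.70 (SE 0.10) and limma adjusted p of 1.49e-06, 1.34e-06 and 1.71e-07. Its interaction was -1.19 ± 0.14 (limma adjusted p = 0.000266). The gene shares 1164 bases with Ly6g6d on the opposite strand and 0 of its 12 values were whole fragments, so the 2 genes cannot be fully told apart. Ly6g6d itself had 1.31 ± 0.19 TPM in vehicle and 0.612 ± 0.0317 in the combination (-0.51, adjusted p = 0.00133 in limma, under the limit of size). Pinlyp, a gene of the Plaur region, rose from 1.16 ± 0.261 TPM to 3.87 ± 0.294 with UK5099 (1.18, limma adjusted p = 1.20e-05) and to 4.5 ± 0.631 in the combination (1.35, limma adjusted p = 1.44e-06), and had 1.84 ± 0.162 with butyrate.

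Plaur, the urokinase receptor, was the only listed family gene to pass both limits as lower against vehicle in limma. Of the rarer genes, named after their values were seen, Ly6g had 0.495 ± 0.0763 TPM in vehicle and 0.0547 ± 0.0175 under UK5099 (-0.50, limma adjusted p = 0.000138, under the limit of size), and voom called Ly6g (-2.71), Ly6g2 (-1.86) and Cd177 (-2.76) lower with UK5099, and Ly6g (-2.60) and Ly6g2 (-3.46) with the combination. Plaur had 38.7, 39.2 and 38.8 TPM in vehicle, 30.1, 32.1 and 31.8 under UK5099, 14.8, 15.4 and 15.4 under butyrate, and 11.4, 11.8 and 11.5 in the combination, with no overlap. Its coefficients were -0.30, -1.30 and -1.67 (SE 0.03; limma adjusted p = 1.02e-05, 4.71e-10 and 6.55e-11). With median of ratios scaling the butyrate coefficient was -0.99, just inside the limit, and that of the combination was -1.23.

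Ly6a, also known as Sca-1, a marker of stem and progenitor cells, was abundant throughout. It had 962.6 ± 21.7, 1077 ± 1.37, 1405 ± 17.7 and 1363 ± 41.1 TPM in the 4 groups in the same order, and its coefficients of 0.16, 0.54 and 0.50 were all under the limit of size (limma adjusted p = 0.000368, 4.14e-08 and 4.11e-08). Per exonic length it stood at 488.7 fragments per 1000000 fragments and kilobase in vehicle and 904.2 in the combination, where its butyrate level of 887.6 was no longer the higher. Lynx1, a GPI-anchored modulator of nicotinic receptors, went from 30.1 ± 1.41 TPM to 44 ± 1.67, 36.8 ± 1.13 and 40.5 ± 1.07, with coefficients of 0.53, 0.28 and 0.42. Ly6c2, with 0.411 ± 0.246, 0.579 ± 0.184, 1.52 ± 0.164 and 1.69 ± 0.22 TPM, had coefficients of 0.17, 0.85 and 0.94, and 0 of its 12 values were whole. Ly6g5b (0.8 to 1.44 TPM as group means) and Spaca4 (0.852 to 1.48 TPM) had a lowest limma adjusted p of 0.125 over the contrasts against vehicle.

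Along chromosome 15 the coefficients did not follow a single direction. Those given here are on the log2(TPM + 1) scale, which shrinks the difference of a low gene. Psca and Ly6d, at one side, and Ly6c1, further along, stood high on it, and between them lay Lynx1 and Ly6m, short of the limit of 1, and Ly6e below 0. Ly6m, named after its values were seen, had mean TPM of 0.0424 in vehicle and 0.525, 0.107 and 0.582 in the treated groups, and with voom on fragments it passed both limits in all 3 contrasts, with 1.92 for butyrate and 4.49 for the combination. The far end of the cluster, from Ly6g to Ly6h, had TPM means of at most 0.495. Ly6g6g, whose symbol names the family but which was not on the list, lies between Ly6d and Ly6k and was counted among the neighbouring genes, with 0.365 ± 0.103 TPM in vehicle, 0.773 ± 0.0812 under UK5099, 0.703 ± 0.0489 under butyrate and 0.815 ± 0.0375 in the combination (coefficients of 0.38, 0.32 and 0.41).

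**Figure D5:**
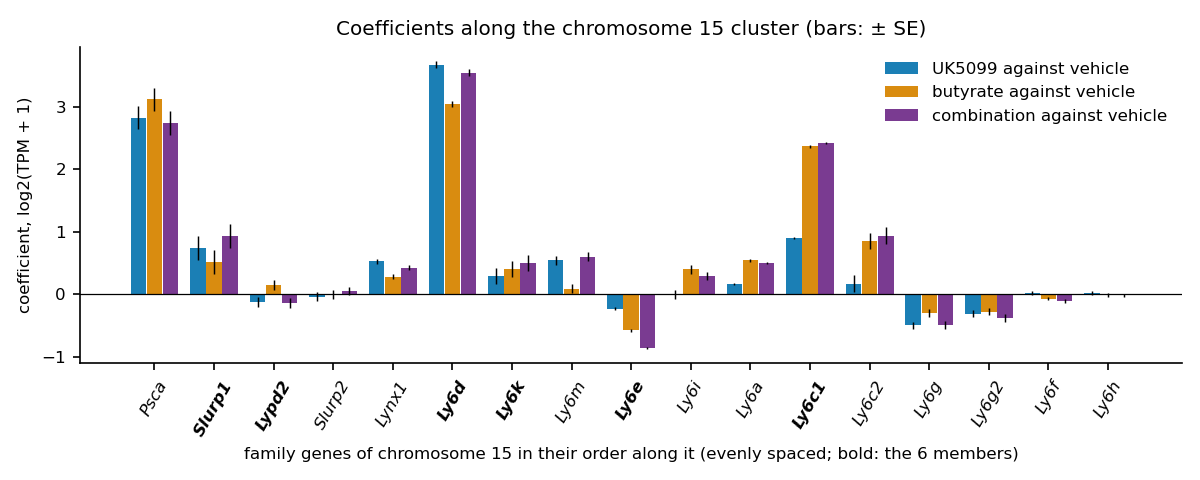
Coefficient against vehicle on the log2(TPM + 1) scale (bars from 0, error bars of 1 SE) for the 17 family genes of chromosome 15 in their order along it, for UK5099, butyrate and the combination, with the 6 members in bold. High bars at Psca, Ly6d and Ly6c1 stand among low ones, Ly6e points down, and the scale shrinks the bars of genes under 1 TPM.

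Of 28 protein-coding genes that are on neither family list and lie within 100 kb of a member, 0 passed with UK5099, where limma gave 5 higher and 12 lower at an unadjusted p under 0.05 and voom called 1. With butyrate Arc, near Slurp1, rose from 35.7 ± 2.22 to 84.4 ± 2.98 TPM (1.22, limma adjusted p = 2.78e-08), while Ddah2, near Ly6g6c, fell from 57.3 ± 2.58 to 20.8 ± 0.282 TPM (-1.42, limma adjusted p = 2.05e-08) and Irgq, near Lypd3, from 57.6 ± 1.43 to 24.9 ± 0.362 TPM (-1.18, limma adjusted p = 1.87e-09). Irgq was short of the limit after median of ratios scaling and with voom (-0.87 and -0.89). With the combination 3 fell (Ddah2 at -1.21, Irgq at -1.41 and Prrc2a at -1.13) and 0 rose in limma, where 4 were higher at an unadjusted p under 0.05 and voom called 2. None of these 3 falls passed after median of ratios scaling (-0.75, -0.96 and -0.67) or with voom (-0.77, -0.99 and -0.67), where voom called Arc and Ly6g6g higher and Mroh4 lower. The median coefficient of the 28 was -0.10, -0.42 and -0.43. Of all genes, 0.928% passed as higher and 0.912% as lower with UK5099. These shares were 1.13% and 2.42% with butyrate, and 1.79% and 4.63% with the combination. They are for both limits in limma. Shares at an unadjusted p under 0.05 and with voom were not taken, so nothing is read from those counts.

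Genes that make the GPI anchor were measured with all 30 of the list. In limma 0 passed in either direction in each of the 3 contrasts, as with voom. Of all genes, 0.928% and 0.912% passed as higher and lower with UK5099, 1.13% and 2.42% with butyrate, and 1.79% and 4.63% with the combination. With shares so small nothing is read from the 0. At an unadjusted p under 0.05 limma gave 1 higher and 16 lower with UK5099. It gave 4 and 22 with butyrate, and 3 and 23 with the combination. Voom gave 7 and 7, 10 and 11, and 10 and 10. The share of all genes at that unadjusted p was not taken, so nothing is read from these counts. The median coefficients of -0.10, -0.20 and -0.34 lay beside the shift of the typical gene given above.

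Of 16 nicotinic receptor subunit genes 8 were in the table, and Chrnb1, the muscle-type beta subunit, fell in all 3 contrasts, from 10.3 ± 0.555 TPM to 3.04 ± 0.217, 1.93 ± 0.0954 and 1.48 ± 0.0673 (-1.48, -1.95 and -2.19, limma adjusted p = 2.22e-08, 1.46e-09 and 3.74e-10). The other 7 listed subunits had group means under 1 TPM. Chrna9, named after its values were seen, was called higher by voom with butyrate and with the combination. It had mean TPM of 0.00401 in vehicle, 0.0183 with butyrate and 0.0231 in the combination. For the nicotinic and urokinase genes, the shares of all genes passing in limma as higher and lower were 0.928% and 0.912% with UK5099. They were 1.13% and 2.42% with butyrate, and 1.79% and 4.63% with the combination. Of the 6 urokinase system genes in the table, Plau, the urokinase itself, fell with butyrate from 165.1 ± 3.43 to 48.3 ± 1.41 TPM (-1.75, limma adjusted p = 2.51e-10) and in the combination to 69.2 ± 1.81 (-1.24, limma adjusted p = 7.55e-10), and had 155.8 ± 4.86 with UK5099. Plat, the tissue-type activator, fell from 3.49 ± 0.283 TPM to 0.747 ± 0.138, 0.89 ± 0.0747 and 0.625 ± 0.0865 (-1.36, -1.25 and -1.46, limma adjusted p = 3.49e-07, 2.04e-07 and 4.14e-08). The Plau coefficient with butyrate stayed past the limit after median of ratios scaling and with voom (-1.44 and -1.46), while that with the combination did not (-0.78 and -0.79). Serpinb2, an inhibitor of urokinase named after its values were seen, passed both limits as higher when UK5099 was added to butyrate (1.16, limma adjusted p = 3.03e-05), beside 0.551% of all genes. Its coefficients of 0.97 with UK5099 and 0.96 with the combination were short of the limit in limma. With voom they were 1.52 and 1.81, past it.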

How the data were processed

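RNA from 12 samples of mouse prostate organoids (3 in each of 4 groups, taken from the labels) was sequenced as read pairs. Per the labels, ribosomal RNA was depleted, mRNA enriched and the second strand marked with dUTP, and the processing notes name STAR 2.7.9a, Partek and GRCm39. The study's methods name another kit, fastp, STAR, RSEM and GRCm38. Whether counting used strand is not given in the sources used here. The authors deposited TPM per gene, which behave as fragments divided by the whole genomic span and scaled to 1000000. The step between low values is worth 1 fragment and set the depth; 75.4% to 76.6% of protein-coding values under 1000 fragments were whole (tolerance 0.02), and the rest may be fragments divided among genes. Levels per exonic kilobase used GENCODE vM21 lengths. Length, GC and start sites of promoters came from RefSeq.

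Limma 3.58.1 (R 4.3.3) was fitted to log2(TPM + 1) over all 12 samples and 24674 genes, with UK5099, butyrate and their interaction, vehicle as reference, and Benjamini-Hochberg adjustment; the pseudocount was chosen here. Genes passed at an adjusted p under 0.01 and an absolute coefficient over 1. Scripts were tested on simulated data. The 8 members and the gene lists were chosen with earlier results of these data known. Named genes were the members, other family genes averaging 1 TPM or more in a group, listed partner and neighbouring genes that passed against vehicle, and the 3 genes most like each member; others are said to be chosen after their values were seen. Alternatives were a pseudocount of 0.1, a filter at an average of 1 TPM, median of ratios scaling, voom on recovered fragments, a replicate block, fits of 2 groups and leaving out each sample. No pair of replicates agreed within sampling noise.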

Additional observations from a re-analysis of the deposited data

Results flagged for a closer look

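For 3 of the 8 members UK5099 had another effect in the presence of butyrate than in its absence. These 3 passed both limits as negative, beside 0.499% of all genes, and 0 as positive, beside 0.515%. The members were chosen with these values known, so that the values are a description. The interaction coefficient was -3.89 for Ly6g6c, -3.19 for Ly6d and -1.16 for Lypd3, and with voom on fragments it was -4.46, -3.19 and -1.17.

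Among the other family genes it differed for Psca (-3.21, limma adjusted p = 3.44e-05) and Ly6g6e (-1.19, limma adjusted p = 0.000266), with voom values of -3.23 and -1.31. These 2 of 28 passed both limits as negative and 0 as positive, beside 0.499% and 0.515% of all genes. All 5 genes stood higher with each treatment alone, and every negative value means that the combination lay below the sum of the single coefficients.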

How the results depend on the processing

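For the 8 members and Psca, Ly6g6e, Pinlyp and Plaur, 48 coefficients were recomputed in 844 comparisons with alternatives: 830 kept direction and side of the limits, 13 newly passed, 1 no longer passed (Plaur with butyrate, -0.99 after median of ratios scaling) and 0 reversed. With voom 5 members passed with UK5099 in place of 3 (Ly6c1 and Slurp1 added), and 6 with butyrate and 6 with the combination in place of 4 and 4 (Ly6k and Slurp1 added). Other family genes passing numbered 7, 6 and 11 (UK5099, butyrate, combination) with a pseudocount of 0.1 and 9, 9 and 12 with voom, in place of 3, 3 and 4. Both weigh genes under 1 TPM more. The share of all genes that passed was taken only for the main fit, so nothing is read from the counts under other settings. Neighbouring genes passing numbered 1 with UK5099 by voom, 5 with butyrate and 7 with the combination at a pseudocount of 0.1, 1 with the combination after median of ratios scaling, and 5 without combination replicate 1, in place of 0, 3 and 3. Without 1 sample, counts ranged from 4 to 5 for members and for other family genes with the combination, from 3 to 4 and from 3 to 5 for neighbouring genes with butyrate and the combination, and from 2 to 3 and from 3 to 4 for nicotinic and urokinase genes with UK5099 and the combination. Depth limits Lypd2 and Slurp1, with few fragments a sample.

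Samples with the same replicate number did not deviate together (r from -0.107 to 0.0294 over 18 pairs, against -0.058 to 0.0737 over 36 pairs of unlike number), so the numbers were not taken as a pairing. With the number as a replicate block, 3, 4 and 4 members, 3, 3 and 4 other family genes and 0, 3 and 3 neighbouring genes passed, as without it.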

Other observations

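Some family genes under 1 TPM, named after their values were seen, passed with voom on fragments. Lypd5, a neighbour of Plaur in the family, had 0.0173 ± 0.015 TPM in vehicle, 0.531 ± 0.0933 under UK5099, 0.0966 ± 0.0533 under butyrate and 0.732 ± 0.0269 in the combination (SD, n = 3). Ly6m had 0.0424 ± 0.0291, 0.525 ± 0.146, 0.107 ± 0.0174 and 0.582 ± 0.0883 TPM. Both had the highest mean in the combination, then UK5099, then butyrate, and the lowest in vehicle. Lypd3, Pinlyp, Ly6g6e and Slurp1 share this order of group means. Lypd6b, a long gene that the span-based TPM makes small, had 0.603, 1.58, 2.28 and 5.23 fragments per 1000000 fragments and exonic kilobase in the 4 groups in the same order, and Ly6i had 0.156 ± 0.0371, 0.15 ± 0.113, 0.521 ± 0.0667 and 0.418 ± 0.0646 TPM, an order it shares with Ly6c1 and Ly6c2 only in that both groups with butyrate stood above vehicle and UK5099. Ly6g went the other way, with 0.495 ± 0.0763 TPM in vehicle and 0.0547 ± 0.0175 with UK5099.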
